A study of Mus musculus with 12 samples.

Results

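Glucose handling in the kidney was described through 8 genes, the glucose carriers Slc5a1, Slc5a2, Slc2a1 and Slc2a2 and the gluconeogenic enzymes Pcx, Pck1, Fbp1 and G6pc, chosen by gene symbol among the 19261 genes of the expression table. All 8 were found and all 8 had enough reads to be tested. The 12 libraries of mouse kidney RNA form 4 groups of 3. Controls had neither treatment. The AOS group was given alginate oligosaccharides, fragments of a brown algal polysaccharide, for 5 weeks at 10 mg/kg, and the busulfan group a single 40 mg/kg dose of that DNA-crosslinking drug. The group called busulfan plus AOS had both, the single 40 mg/kg dose first and then 5 weeks of AOS at 10 mg/kg. The strain is labelled IRC and the tissue Cells, whereas the title and the protocol speak of kidney. Age and sex are not given, nor whether the samples are from different animals. P-values therefore measure only the spread between these samples, which may be technical.

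The kidney filters glucose from the blood and takes nearly all of it back in the proximal tubule. Sodium-coupled carriers bring it into the cell from the urine side, Slc5a2 (SGLT2) with high capacity in the early segments and Slc5a1 (SGLT1) with high affinity further down, and the passive carriers Slc2a2 (GLUT2) and Slc2a1 (GLUT1) let it leave on the blood side. The same cells make glucose from lactate and glutamine: Pcx turns pyruvate into oxaloacetate, Pck1 turns that into phosphoenolpyruvate, Fbp1 removes a phosphate from fructose bisphosphate, and G6pc, in the endoplasmic reticulum, frees glucose from glucose 6-phosphate.

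Library totals ranged from 13875942 to 15329347 estimated reads. All 16 genes listed as proximal tubule markers had enough reads to be tested, and together they summed to 29602.6 to 40535.3 normalized CPM (CPM, the read count divided by the library total and multiplied to a common size, here scaled between libraries by trimmed means of M values), so that markers of the kidney named in the title were present. Some libraries stood apart. In replicate 3 of busulfan plus AOS the 15 hepatocyte markers summed to 18318.8 normalized CPM, against 29.4 to 349.7 in the other 11 libraries. In busulfan replicate 3 the adrenal markers summed to 10692.7 normalized CPM, against 5.75 to 11.9 elsewhere, and adipose markers were highest in busulfan replicates 2 and 3. Replicates 2 and 3 of busulfan plus AOS also differed in the daily clock: Dbp, a clock output gene, measured 114.4 and 88.9 normalized CPM there and 1.44 to 16.5 in the other libraries, while the clock activator Arntl measured 7.86 and 8.15 against 29.9 to 45.2.

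Between genes, levels were compared per transcript length, as FPKM (the fragment count divided by transcript length and library size). Fbp1 was the most abundant of the 8, at 1001.8 ± 80.4 FPKM (SD, n = 12), and ranked 49 among all genes. Pck1 followed at 577 ± 129.5 FPKM, then G6pc at 289 ± 77.9, Slc5a2 at 241 ± 33.0 and Pcx at 122 ± 11.7 FPKM. The passive carrier Slc2a2 reached 50.6 ± 10.3 FPKM, and the lowest were Slc5a1 at 19.7 ± 1.49 and Slc2a1 at 17.1 ± 3.48 FPKM. In this order the ranges over the 12 libraries overlapped for 3 neighbouring pairs only, Pck1 with G6pc, G6pc with Slc5a2, and Slc5a1 with Slc2a1. Between the sodium-coupled carriers, Slc5a2 was 9.51 to 14.6 times as high as Slc5a1 in FPKM in all 12 libraries. Between the passive carriers, Slc2a2 was 1.87 to 6.11 times as high as Slc2a1, also in all 12.

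**Figure D1:**
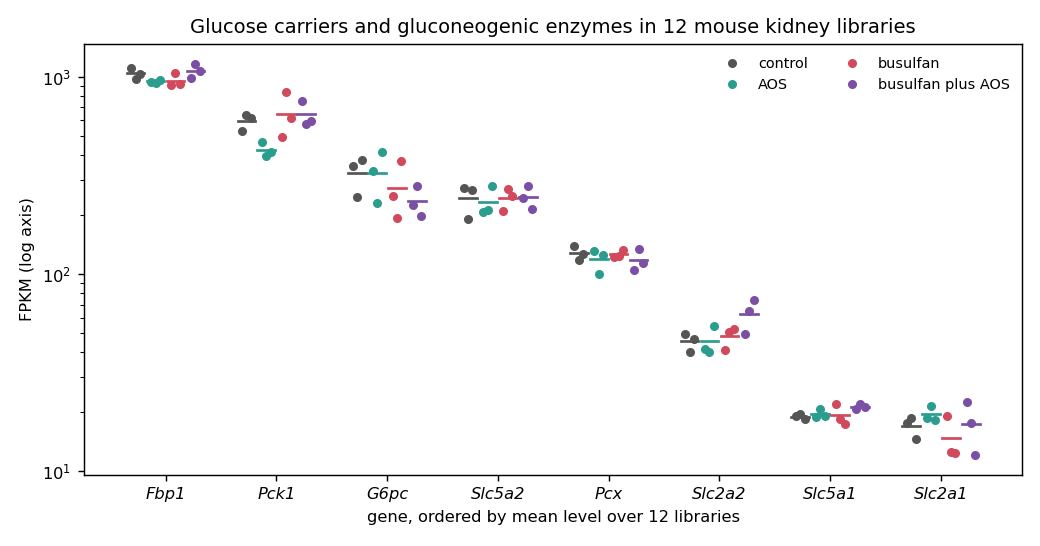
FPKM of each gene in each of the 12 libraries, on a log axis, with 1 point per library, coloured by group, and a line at each group's mean (n = 3). Fbp1 lies highest and Slc2a1 and Slc5a1 lowest in every group, and Pck1 in the AOS group lies below all other Pck1 points.

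The genes differed in how steady they were. Over the 12 libraries the coefficient of variation of FPKM was 7.53% for Slc5a1, 8.03% for Fbp1 and 9.55% for Pcx, and 13.7% for Slc5a2. It was 20.3% for Slc2a1, 20.4% for Slc2a2, 22.4% for Pck1 and 26.96% for G6pc. The steadiest genes included both the most abundant enzyme, Fbp1, and a scarce carrier, Slc5a1. With 427 reads or more in every library for the least read gene, Slc2a1, counting error alone was smaller than these spreads.

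None of the 8 genes passed the threshold of an adjusted p of 0.05 in any comparison (edgeR's quasi-likelihood test, adjusted over 14428 genes by Benjamini-Hochberg). For busulfan against control 0 of 8 passed, where 0.0416% of all genes tested did, and for busulfan plus AOS against AOS 0 of 8 beside 0.0693%. In AOS against control, in busulfan plus AOS against busulfan, and in the interaction, 0 of 8 passed beside 0.0% of all genes. Averaged over both AOS settings, 0 of 8 passed for busulfan, beside 0.194%. By DESeq2 the shares of all genes called were 0.859%, 0.617%, 0.0693%, 0.166%, 0.0762% and 1.55% in the same order of comparisons, again with 0 of the 8. At an unadjusted p of 0.05 the members past it numbered 0 for busulfan against control (10.1% of all genes), 2 for busulfan plus AOS against AOS (9.16%), 1 for AOS against control (3.59%), 1 for busulfan plus AOS against busulfan (8.69%), 1 for the interaction (5.89%) and 1 for busulfan averaged over AOS (12.1%). Counted by groups that did not overlap, 0 of 8 were higher and 0 lower for busulfan against control (5.72% and 5.63% of all genes) and for busulfan plus AOS against busulfan (4.18% and 4.19%). For AOS against control 0 of 8 were higher (6.2%) and 2 lower (6.76%), and for busulfan plus AOS against AOS 2 were higher (8.48%) and 0 lower (8.72%). With 3 libraries a group, the intervals given for each gene show which sizes of change the data could still hold.

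**Figure D2:**
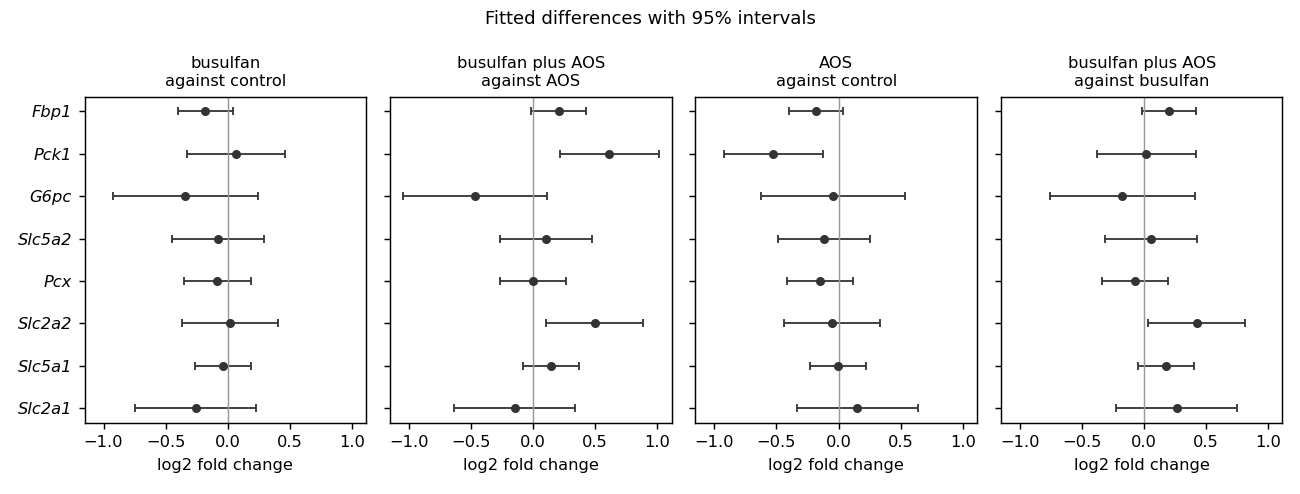
Fitted log2 fold change of each gene in 4 comparisons (point) with its 95% interval (bar), from the edgeR fit to all 12 libraries. The intervals of Pck1 in AOS against control (-0.92 to -0.13) and in busulfan plus AOS against AOS (0.22 to 1.01) lie to one side of 0, as do those of Slc2a2 in both comparisons of busulfan plus AOS; no adjusted p passed 0.05.

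Slc5a2 is encoded on chromosome 7 (GRCm38.p6, 128265683 to 128272430, forward strand). It overlaps BC017158 on the opposite strand, and its counts were not whole numbers in any of the 12 libraries, as happens when reads that fit several transcripts are shared out, so its level is uncertain to that extent. In normalized CPM it measured 590.3, 408 and 592 in control replicates 1 to 3 and 441, 439 and 583 with AOS. With busulfan it measured 448, 573 and 489, and with both 506, 584 and 481. High and low libraries occurred in every group and all groups overlapped. Its fold changes stayed small: -0.08 ± 0.17 on the log2 scale (SE; 95% interval -0.45 to 0.29) for busulfan against control and -0.12 ± 0.17 (-0.49 to 0.25) for AOS against control. The latter lay between -0.28 without control replicate 2 and -0.0315 without control replicate 1, and leaving out any library of either group moved it by over 1.5 times.

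Slc5a1 (chromosome 5, 33104219 to 33162699, forward strand) was the steadiest carrier. It measured 74.0, 74.5 and 72.6 normalized CPM in control, 71.9, 77.2 and 71.5 with AOS, 84.3, 70.3 and 61.1 with busulfan, and 76.9, 82.2 and 84.7 with both. The busulfan libraries spanned nearly the whole range of the gene, and the other groups lay within it or just above. The largest of its fitted differences between groups was 0.18 ± 0.10 on the log2 scale for busulfan plus AOS against busulfan (95% interval -0.05 to 0.40; adjusted p = 0.632 by edgeR's quasi-likelihood test). It was 0.31 without busulfan replicate 1 and 0.0719 without busulfan replicate 3.

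Slc2a2 (chromosome 3, 28697903 to 28728361, forward strand) measured 124, 98.3 and 119.6 normalized CPM in control and 102, 96.1 and 131 with AOS. It measured 102, 125 and 119 with busulfan, and 119, 156 and 189.8 with both treatments. Its highest libraries were replicates 2 and 3 of busulfan plus AOS, and replicate 1 lay inside the range of the other groups, so that no groups failed to overlap. The fitted difference was 0.50 ± 0.18 on the log2 scale (95% interval 0.11 to 0.88) for busulfan plus AOS against AOS, with an adjusted p of 0.476 by edgeR's quasi-likelihood test. Against busulfan alone it was 0.42 ± 0.18 (0.04 to 0.81), with an adjusted p of 0.545.

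Both high libraries were those with high Dbp and low Arntl, and replicate 3 was also the one with hepatocyte transcripts; hepatocytes use Slc2a2 too. Alb, serum albumin, measured 10077.2 normalized CPM in replicate 3 and 22.0 in replicate 2, in which the hepatocyte markers summed to 57.8, within the range of the other groups. All hepatocyte markers together summed to 142.8 to 229.2 normalized CPM in control, 103 to 349.7 with AOS, 29.4 to 164.2 with busulfan and 57.8 to 18318.8 with both. Without replicate 3 of busulfan plus AOS the differences of Slc2a2 were 0.32 and 0.24 on the log2 scale, and without both replicates, a setting chosen after seeing the data, they were 0.12 and 0.0454. Slc2a2 also followed the summed early proximal tubule markers over the 12 libraries (r = 0.70, rho = 0.83, 0.78 within groups, 0.72 without the 2 farthest). All 6 of those markers had a positive difference between busulfan plus AOS and AOS, and 0 were called. They summed to 8262.5 to 10909.9 normalized CPM in control, 7902.6 to 10007 with AOS, 8120.7 to 10759.7 with busulfan and 8566.6 to 10950.7 with both. Slc34a1 was the largest part of that sum in every library. The part of hepatocyte RNA, of the clock state or of early tubule content in the level of Slc2a2 was not tested. Replicate 3 of busulfan plus AOS also enters the differences of Pck1, G6pc, Fbp1 and Pcx. Whether hepatocyte RNA has a part in those was not tested either.

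**Figure D3:**
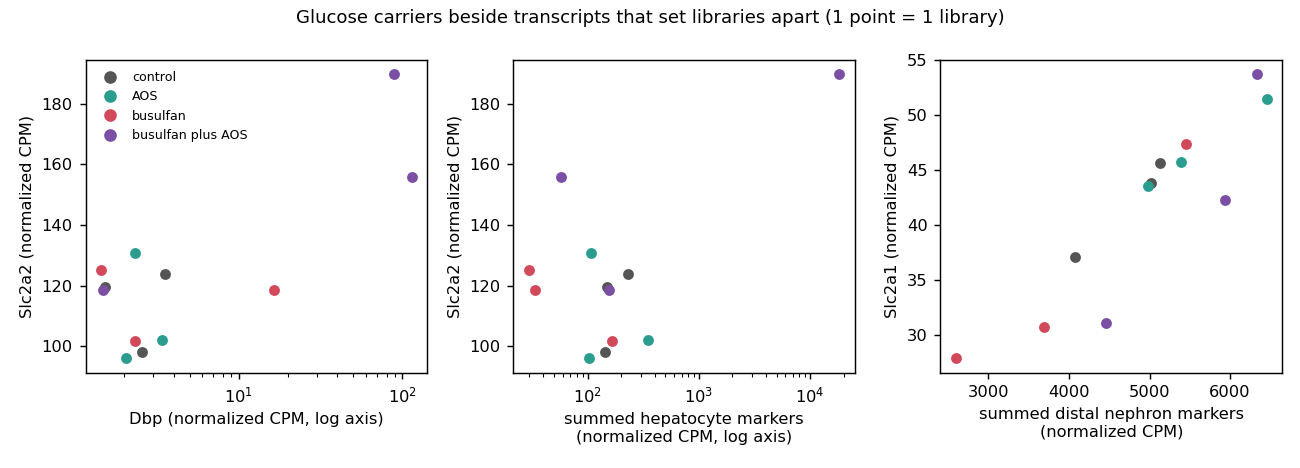
Each point is 1 library, coloured by group; the vertical axes show normalized CPM of Slc2a2 (left and middle) and of Slc2a1 (right), beside Dbp, summed hepatocyte markers and summed distal nephron markers, with log axes for Dbp and for the hepatocyte sum. The points with the highest Slc2a2, 156 and 189.8 normalized CPM, have the highest Dbp. Slc2a1 is high where the sum of distal nephron markers is high, and vertical axes do not start at 0.

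Slc2a1 lies on chromosome 4 (119108745 to 119137330, forward strand) and overlaps Gm12868 on the opposite strand. Its counts were whole in all 12 libraries; whether they include reads of Gm12868 was not tested, and the counting is not stated to use strand. It measured 43.8, 45.7 and 37.1 normalized CPM in control, 45.7, 51.4 and 43.5 with AOS, 47.4, 30.7 and 27.9 with busulfan, and 53.7, 42.2 and 31.1 with both. Busulfan replicates 2 and 3 and replicate 3 of busulfan plus AOS were the lowest libraries, and all groups overlapped. Those lowest libraries also had the most adipose (busulfan 2 and 3), adrenal (busulfan 3) and hepatocyte transcripts (busulfan plus AOS 3). The part of that RNA in the level of Slc2a1 was not tested. For busulfan against control its difference was -0.26 ± 0.22 on the log2 scale (95% interval -0.75 to 0.23), and it was -0.53 without busulfan replicate 1, -0.16 without replicate 2 and -0.11 without replicate 3. Over the 12 libraries Slc2a1 followed the summed level of 10 distal nephron and collecting duct markers (Pearson's r = 0.90, Spearman's rho = 0.88, r = 0.92 on deviations from group means, and 0.82 without the 2 libraries farthest from the median of that sum). That sum was 4069.4 to 5135.1 normalized CPM in control, 4986.5 to 6457.5 with AOS, 2596.7 to 5451 with busulfan and 4457.8 to 6335 with both. Umod was its largest part in every library, and the markers did not all move alike. In busulfan replicates 1 to 3 Umod measured 3040.0, 1596.2 and 863.3 normalized CPM and Slc12a1 1140.9, 469.6 and 288.8. There Slc12a3 measured 657.5, 794.4 and 778.1 and Calb1 338.3, 601.3 and 471.4, without the fall seen in Slc2a1. The libraries' values share their scaling, and in bulk tissue fewer cells of a type and less RNA per cell cannot be told apart. The genes whose log2 levels were most like it, among 11038 genes compared, were Dusp15, Kcnj1 (a potassium channel of the thick ascending limb and collecting duct) and Mal, each at r = 0.96. Slc5a2 likewise followed the summed level of early proximal tubule markers (r = 0.88, rho = 0.87, 0.88 within groups, 0.83 without the 2 farthest libraries), a sum of which Slc34a1 was the largest part in every library. The genes most like Slc5a2 were Gpx3, an extracellular glutathione peroxidase made in the proximal tubule (r = 0.93), Pxn (0.92) and Bex4 (0.91).

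Of the enzymes, Pcx (chromosome 19, 4510472 to 4621752, forward strand) measured 567, 473 and 528.5 normalized CPM in control, 525, 395 and 492 with AOS, 494, 499 and 488 with busulfan, and 409, 524 and 478 with both. AOS replicate 2 was its lowest library, and all groups overlapped. The intervals of its differences all spanned 0. For AOS against control the difference was -0.15 ± 0.12 on the log2 scale (-0.42 to 0.12), which became -0.24 without AOS replicate 1, -0.0393 without AOS replicate 2 and -0.0853 without control replicate 1. For busulfan plus AOS against AOS it was -0.00062 ± 0.12 (-0.27 to 0.27).

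Pck1 and G6pc are the enzymes whose transcription is best known to respond to hormones: cyclic AMP raises and insulin lowers both in liver, and in kidney Pck1 also responds to acid. Their start regions are shown because these genes varied most of the 8 and lay at opposite extremes in the same library. Each sequence is the 250 bases before the RefSeq transcript start (GRCm38.p6), for Pck1 chr2:173152823-173153072 and for G6pc chr11:101367466-101367715, both on the forward strand. Capitals mark motifs found by a search of both strands.
Pck1: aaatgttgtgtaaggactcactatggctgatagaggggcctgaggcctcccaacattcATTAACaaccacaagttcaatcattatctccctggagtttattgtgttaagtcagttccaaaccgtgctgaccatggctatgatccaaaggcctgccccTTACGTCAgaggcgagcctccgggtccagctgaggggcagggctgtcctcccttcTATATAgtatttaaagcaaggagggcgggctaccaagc
G6pc: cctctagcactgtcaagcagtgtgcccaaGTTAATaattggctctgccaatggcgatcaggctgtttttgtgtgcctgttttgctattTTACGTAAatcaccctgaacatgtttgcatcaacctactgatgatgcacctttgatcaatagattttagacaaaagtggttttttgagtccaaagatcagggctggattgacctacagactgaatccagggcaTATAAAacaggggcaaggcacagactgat

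In the Pck1 window the letters TTACGTCA, a form of the cyclic AMP response element (searched as TGACGTCA or TTACGTCA), stood 93 to 86 bases before the start, and 1.98% of 32851 mouse promoter windows of that length hold such a match. In the G6pc window the palindrome TTACGTAA, a form of the D-box that Dbp and its relatives bind (searched as TTATGTAA or TTACGTAA), stood 162 to 155 bases before the start, against 0.931% of windows. Both windows also held a TATA box (TATAAA or TATATA, 15.6% of windows) and the letters GTTAAT on either strand, part of the site of the tubule and liver factor HNF1 (6.43%). No match overlapped another. E-boxes (CACGTG, 6.02%) were found in windows of Slc5a1 and Pcx, and none of these motifs in those of Fbp1, Slc2a1 and Slc2a2. A match describes letters only and is no measure of binding, and other forms of each site were not searched.

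Pck1 (chromosome 2, 173153073 to 173159274, forward strand) measured 1339.5, 1596.3 and 1586.3 normalized CPM in control, and 1164.4, 965.8 and 1008.5 with AOS. It measured 1245.7, 2077.6 and 1418.0 with busulfan, and 1835.0, 1400.3 and 1567.7 with both. The 3 AOS libraries were the lowest 3 of the 12, an arrangement that 0.527% of all genes tested shared; for another group, or for the highest 3, the share was 0.43% to 0.811%. Against control the difference was -0.53 ± 0.18 on the log2 scale (95% interval -0.92 to -0.13; 1.44-fold), with an adjusted p of 1.0 by edgeR's quasi-likelihood test. Busulfan plus AOS exceeded AOS by 0.61 ± 0.18 (0.22 to 1.01; 1.53-fold), with an adjusted p of 0.476; these comparisons share the AOS libraries. Against busulfan alone, AOS after busulfan differed by 0.02 ± 0.18 (-0.38 to 0.42), and the interaction was 0.55 ± 0.25 (-0.02 to 1.11; adjusted p = 0.793 by the same test).

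Over the alternatives tried, the difference of Pck1 between AOS and control ranged from -0.61 to -0.44 with a lowest adjusted p of 0.435, and that between busulfan plus AOS and AOS from 0.50 to 0.81 with a lowest adjusted p of 0.0818, by DESeq2. Proximal tubule markers summed to 34727 to 40535.3 normalized CPM in control and to 34516.8 to 36373.3 with AOS. Scaled by that sum, the difference from control was -0.44. Adipose tissue also makes Pck1, and the library with the highest Pck1, busulfan replicate 2, had adipose markers at 1841.4 normalized CPM. Busulfan replicate 3 had more, at 2262.3, with Pck1 at 1418.0, and the other 10 libraries had 809.5 to 1290.2. Adipoq, one of these markers, measured 33.85 in busulfan replicate 2, 66.47 in replicate 3 and 0.0 to 4.23 in the other 10. The part of adipose RNA in the level of Pck1 was not tested.

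**Figure D4:**
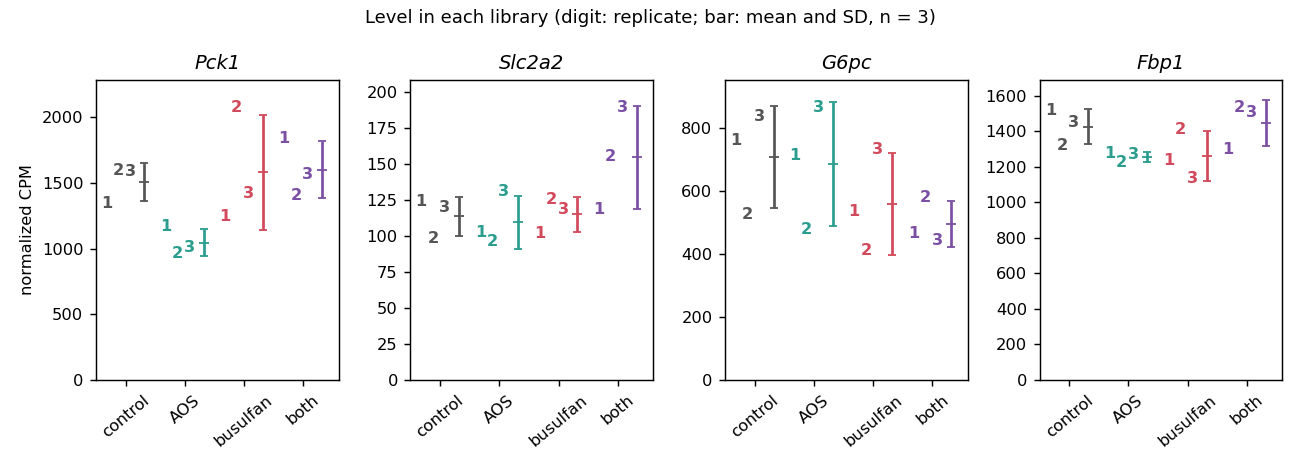
Normalized CPM of Pck1, Slc2a2, G6pc and Fbp1 in each library, with the replicate number as the mark and a bar for the group's mean and SD (n = 3); "both" stands for busulfan plus AOS. The AOS marks of Pck1 lie between 965.8 and 1164.4, below all other libraries, and Slc2a2 is highest in replicates 2 and 3 of busulfan plus AOS.

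Fbp1 (chromosome 13, 62864753 to 62888298, reverse strand) measured 1514, 1317.6 and 1446.2 normalized CPM in control and 1275, 1222.6 and 1269.5 with AOS. With busulfan it measured 1235.2, 1410 and 1131.3, and with both 1299.4, 1535.8 and 1507.3. The AOS libraries lay below every control library and below every library with both treatments, as for Pck1, so that Pck1 and Fbp1 were the genes without overlap in both comparisons. Its differences were smaller, -0.18 ± 0.10 on the log2 scale (95% interval -0.40 to 0.04) and 0.21 ± 0.10 (-0.01 to 0.42). The interaction was 0.38 ± 0.14 (0.08 to 0.69), with an adjusted p of 0.793 by edgeR's quasi-likelihood test. Without both replicates of high Dbp, the difference between busulfan plus AOS and AOS was 0.0523, a setting chosen after seeing the data. Fbp1 followed the summed proximal tubule markers (r = 0.76, rho = 0.79, 0.87 within groups, and 0.69 without the 2 farthest libraries, n = 12).

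G6pc (chromosome 11, 101367716 to 101377903, forward strand) was the most variable enzyme, with replicates of 1 group up to 1.81 times apart. It measured 761.5, 525.5 and 838.5 normalized CPM in control and 713, 478.5 and 867 with AOS. With busulfan it measured 534, 411 and 733.5, and with both 466, 580.1 and 442.5. Libraries above 700 occurred in every group except busulfan plus AOS, and all groups overlapped. Averaged over AOS, busulfan gave -0.40 ± 0.19 on the log2 scale (95% interval -0.82 to 0.01; adjusted p = 0.416 by edgeR's quasi-likelihood test). For Pck1 the same average was 0.34 ± 0.13 (0.06 to 0.62; adjusted p = 0.351), and 0.22 without busulfan replicate 2. The 2 enzymes were at opposite ends in busulfan replicate 2, which held the highest Pck1 and the lowest G6pc, and the ratio of Pck1 to G6pc in FPKM ranged from 0.995 in AOS replicate 3 to 4.33 there.

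Across the 12 libraries the 8 genes did not rise and fall as 1 block. Of their 28 pairs the closest was Slc2a2 with Fbp1 (Pearson's r of log2 levels 0.65), followed by G6pc with Pcx (0.57) and Slc5a2 with Fbp1 (0.55). Slc2a1 ran opposite to Slc2a2 (-0.51), Slc5a1 to G6pc (-0.47) and Pck1 to G6pc (-0.44). These correlations describe the libraries, which share their scaling and their mixture of tissues. The genes most like the others were Ugt2b34 (0.94), Cyp2d26 (0.93) and Cdk18 (0.92) for Slc2a2, Nek6 and Epb41l4b (0.91) and Cldn16 (0.89) for Slc5a1, and Mtmr14 and Bola1 (0.93) and Coq9 (0.91) for Fbp1. For Pck1 they were a gene model without a name (0.89), Slc25a3 (0.87) and Ptpmt1 (0.85), for G6pc Tmem268 (0.87), Clip2 and Cbx8 (0.85), and for Pcx Nsmce1 (0.89), Mpv17 (0.87) and Rab24 (0.85).

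**Figure D5:**
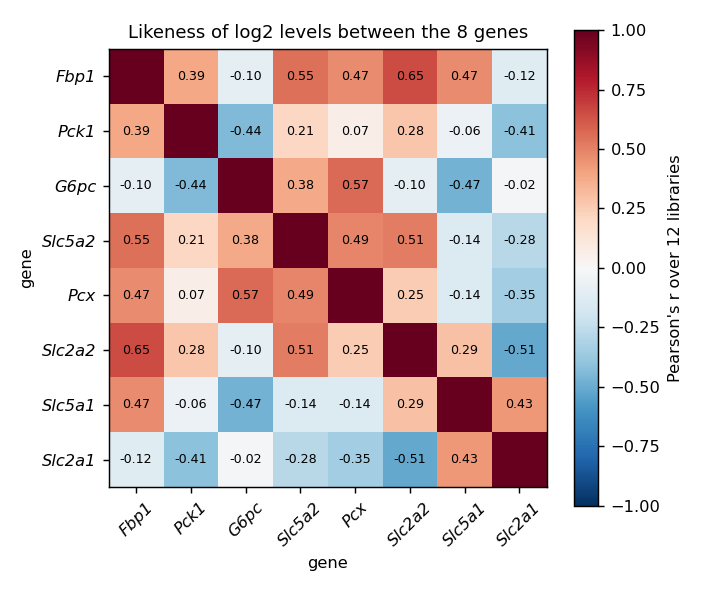
Pearson's r of log2 normalized CPM between each pair of the 8 genes over 12 libraries; red squares are positive and blue negative, and rows are ordered by mean FPKM. Values run from -0.51 (Slc2a1 with Slc2a2) to 0.65 (Slc2a2 with Fbp1).

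Other genes of the same pathways gave 0 calls in each comparison by edgeR's quasi-likelihood test at an adjusted p of 0.05. The lists held 22 tested genes on the way from substrate to glucose, 12 of 16 other sugar carriers and helpers, 8 of glutamine use, 11 of 13 of glycolysis and 19 regulators. Of the 22 genes on the way from substrate to glucose, among them those that bring lactate and other substrates into the pathway, 17 had a negative log2 difference between AOS and control, 6 of them without overlap of the groups, Mdh1, Ldha, Ldhb, Khk, Tkfc and G6pc3, named after their values were seen. Of all genes tested, 49.0% had a negative difference and 6.76% were lower without overlap. The median log2 difference of the list was -0.10, beside 0.00 over all genes tested. Scaled by proximal tubule markers, 11 of the 22 were negative and the median was -0.0049, beside 0.0961 over all genes. For busulfan against control, 17 of the 22 were also negative, beside 51.0% of all genes tested. There 3 of the list were lower without overlap, beside 5.63%, and the median was -0.13. Both comparisons share the control libraries. Among the sugar carriers and helpers, Slc37a4, which carries glucose 6-phosphate to G6pc, measured 299.4, 271.8 and 295.6 normalized CPM in control and 254.3, 234.7 and 243.1 with AOS. The groups did not overlap, and the difference was -0.24 ± 0.09 on the log2 scale (adjusted p = 1.0 by edgeR's quasi-likelihood test). Of the 12 tested sugar carriers and helpers, 1 was lower without overlap there and 0 higher, beside 6.76% and 6.2% of all genes.

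Slc5a9, a mannose and glucose carrier (SGLT4), measured 12.1, 12.7 and 19.9 normalized CPM with AOS and 27.5, 22.3 and 28.9 with busulfan plus AOS, a difference of 0.82 ± 0.25 (adjusted p = 0.476 by the same test). Pdzk1ip1, the small partner protein that SGLT2 needs for transport, measured 234.7, 211.9 and 293.7 with AOS and 346.5, 331.7 and 317.4 with both, a difference of 0.43 ± 0.16 (adjusted p = 0.489). Neither pair of groups overlapped. Between busulfan plus AOS and AOS, 4 of the 12 tested sugar carriers and helpers were higher without overlap and 0 lower. Over all genes the shares were 8.48% and 8.72%. In control Slc5a9 measured 25.95, 13.58 and 18.7, and with busulfan 12.85, 16.79 and 14.3. Pdzk1ip1 measured 372.5, 242.1 and 331.0 in control and 254.1, 317.7 and 264.7 with busulfan. Its libraries with both treatments thus lay within the control range. Slc9a3, the sodium-proton exchanger of the same brush border, differed between busulfan plus AOS and busulfan by 0.52 ± 0.12 (adjusted p = 0.477).

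Among 19 regulators, Txnip, a glucose-induced brake on glucose uptake, was higher without overlap in AOS than in control, by 0.46 ± 0.15 on the log2 scale (adjusted p = 1.0 by edgeR's quasi-likelihood test). For that comparison 1 of the 19 was higher without overlap and 1 lower, beside 6.2% and 6.76% of all genes tested. Foxo3, a transcription factor that insulin signalling holds out of the nucleus, differed by 0.32 ± 0.08 for busulfan averaged over AOS (adjusted p = 0.236). Gcgr, the glucagon receptor, measured 15.6, 15.6 and 38.6 normalized CPM in busulfan plus AOS and 9.92 to 14.5 in the other libraries; the value of 38.6 came from the library with hepatocyte transcripts. In glycolysis, Pfkfb3, which makes the activator of phosphofructokinase, measured 14.2, 24.8 and 35.8 with busulfan against 8.81 to 13.7 in control (1.07 ± 0.32 on the log2 scale; adjusted p = 0.416), and its highest libraries were busulfan replicates 2 and 3, those with the most adipose transcripts. Adipose markers summed to 973.5 to 1130.3 normalized CPM in control and 1172.0 to 2262.3 with busulfan. Most of that sum was Lpl and Acsl1 in control and in busulfan replicate 1, where they measured 858.3 and 265.2. Adipoq, another of these markers, measured 0.07 to 2.47 in control and 0.07, 33.85 and 66.47 in busulfan replicates 1 to 3. The part of adipose transcripts in the difference of Pfkfb3 was not tested.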

How the data were processed

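The authors deposited 1 table of 19261 genes with unscaled expected counts per library. Beside these estimated counts the authors deposited expression values taken as FPKM from their scale. The deposited FPKM were used to compare genes and for the coefficients of variation. They also served the ratio of Pck1 to G6pc over libraries and the limma alternatives on log2 FPKM. The build is mm10, per the submitters' processing notes; for the aligner, the counter and its use of strand, nothing is stated (not given in the sources used here). Between 76.8% and 78.8% of the counts were whole within 0.005. Counts were rounded and tested with edgeR 4.0.16 (R 4.3.3): TMM scaling, its expression filter (14428 genes kept), 1 mean per group over all 12 libraries, 8 residual degrees of freedom, biological coefficient of variation 26.8%, two-sided p-values adjusted by Benjamini-Hochberg over all genes, threshold 0.05. Libraries were grouped by title. The interaction compares the busulfan difference with AOS against that without it. Intervals are 95% and use the fit's standard errors.

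Alternatives were DESeq2 1.42.0, limma 3.58.1 (voom with quality weights, and log2(FPKM + 1) or + 0.1), other scalings, other filters, a replicate block, only the compared groups, an adjusted p of 0.1 and each library left out. The procedure was tested on simulated data. Same-numbered libraries did not deviate together. The least different replicates, AOS 1 and 2, had a mean squared difference 5.36 times the sampling variance, and no library was treated as a duplicate. Members, lists and the averaged comparison were chosen with earlier results of these data known. All 8 members are named, of other lists up to 4 genes of lowest p per comparison (for AOS against control, 6 genes whose groups did not overlap were named outside this rule, after their values were seen), and for likeness the 3 genes of highest Pearson's r among genes with a mean of at least 5 CPM; the text names part of them, and the clock genes were added after their values were seen. Positions are from RefSeq, GRCm38.p6, counted from 1. Promoter windows, from the RefSeq table of that build, matched 7 of the 8 members.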

Additional observations from a re-analysis of the deposited data

How the results depend on the processing

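None of the 8 genes was called in any comparison under any of the 154 alternative counts, at 0 of 8 each time. The looser threshold, an adjusted p of 0.1, was applied to the main edgeR fit only, and the other alternatives kept 0.05. By DESeq2, Pck1 reached an adjusted p of 0.0818 for busulfan plus AOS against AOS, which would pass 0.1. Over all genes, DESeq2 called 124, 89, 10, 24, 11 and 223 and limma's voom 7, 29, 1, 0, 0 and 60, against 6, 10, 0, 0, 0 and 28 by edgeR, with comparisons ordered as in the calls above. These counts, and the shares of all genes called, hang on single libraries: without busulfan replicate 1 edgeR called 195 for busulfan against control and 163 averaged over AOS, and without any 1 of the AOS libraries it called 1 for busulfan plus AOS against AOS. With 1 library left out in turn, the calls ranged from 2 to 195, 1 to 25, 0 to 0, 0 to 26, 0 to 1 and 18 to 163 in the same order. Replicate numbers did not pair the libraries: same-numbered deviations correlated at -0.261 to 0.159, with 4 of 18 pairs over 0.1 and 6 of 12 libraries closest to their own number. A replicate block left the count at 0 of 8 in each comparison. Scaling by proximal tubule markers moved the median log2 difference of all genes to 0.161 for busulfan against control and to -0.166 for the interaction. Of 1232 alternative log2 differences, 90 had the opposite sign, spread over 21 of 48 values, and none of those was called; the cause was not tested. Depth limits Slc2a1 most, at 427 to 776 reads a library.

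With each library left out in turn, these log2 differences crossed 0. For busulfan against control, Slc5a1 ranged from -0.17 to 0.0692, Slc5a2 from -0.23 to 0.0165, Slc2a2 from -0.0743 to 0.1 and Pck1 from -0.17 to 0.21. For busulfan plus AOS against AOS, Slc2a1 ranged from -0.36 to 0.0319 and Pcx from -0.11 to 0.0862. For AOS against control, Slc5a1 ranged from -0.0391 to 0.0209, Slc2a2 from -0.2 to 0.0331 and G6pc from -0.25 to 0.16. For busulfan plus AOS against busulfan, Slc5a2 ranged from -0.0282 to 0.16, Pck1 from -0.12 to 0.26, G6pc from -0.36 to 0.0705 and Pcx from -0.16 to 0.014. In the interaction, Slc2a1 ranged from -0.11 to 0.38, G6pc from -0.34 to 0.12 and Pcx from -0.0352 to 0.16. For busulfan averaged over AOS, Slc5a1 ranged from -0.0124 to 0.11, Slc5a2 from -0.0636 to 0.0884, Fbp1 from -0.0299 to 0.0488 and Pcx from -0.1 to 0.00435.

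Other settings gave these values of opposite sign. For busulfan against control, proximal tubule scaling gave 0.12 for Slc5a1, 0.1 for Slc5a2 and 0.0887 for Pcx. There limma on log2(FPKM + 1) and on log2(FPKM + 0.1) gave 0.0149 and 0.0153 for Slc5a1 and 0.00135 and 0.0014 for Slc5a2. Without the adrenal and hepatocyte libraries, Slc5a1 was 0.0683 and Slc2a2 -0.00472. For busulfan plus AOS against AOS, Slc2a1 was 0.0326 when the adrenal and hepatocyte libraries were dropped and 0.2 without both libraries of high Dbp, a setting chosen after seeing the data. Pcx there was 0.00134 by DESeq2 and by relative log expression scaling, 0.00468 by upper quartile scaling, 0.00317 by proximal tubule scaling, 0.0739 by voom, 0.0147 with a filter at 5 CPM, 0.0048 with only the compared groups and 0.00621 with the replicate block. For AOS against control, Slc5a1 was 0.00935 by voom, 0.0433 and 0.0453 on the FPKM scales, 0.00628 with a filter at 5 CPM and 0.0887 by proximal tubule scaling, which also gave 0.0455 for Slc2a2 and 0.0593 for G6pc. For busulfan plus AOS against busulfan, proximal tubule scaling gave -0.00641 for Slc5a2 and -0.0231 for Pck1, voom gave -0.19 for Pck1 and 0.13 for G6pc, and dropping the adrenal and hepatocyte libraries gave -0.0375 for Pck1 and 0.15 for G6pc. In the interaction, G6pc was 0.33 by voom and 0.19 without those libraries, Slc2a1 was -0.00494 by proximal tubule scaling, and Pcx was -0.0855 by that scaling, -0.00273 and -0.00276 on the FPKM scales and -0.12 without both libraries of high Dbp. For busulfan averaged over AOS, leaving out the latter gave -0.00926 for Slc5a2 and -0.0637 for Fbp1, and Pcx was 0.00143 by voom and 0.0459 by proximal tubule scaling.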
